A study of Mus musculus with 24 samples.

Results

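The comparison described here is that of Kdm6b conditional knockout (Kdm6b-cKO) with wild-type (WT) cortical nuclei at postnatal day 1 (P1). It takes the 6 Kdm6b-cKO and 6 WT libraries of P1, out of 24 libraries in the series, and the 16250 of 25135 listed genes whose FPKM (fragments scaled to transcript length and to library size) averaged at least 1 over those 12 libraries. The other 12 libraries, of P30, are used only to look up the same genes in samples that took no part in choosing them. In the Kdm6b-cKO mice both Kdm6b alleles were floxed (Kdm6b f/f) and recombined by Emx1-Cre, which is active in the dorsal telencephalic lineage that gives rise to cortical glutamatergic neurons, astrocytes and part of the oligodendrocytes. The WT mice carried intact Kdm6b, and both genotypes, on a C57BL/6 background, carried the SUN1-GFP reporter, a nuclear envelope protein fused to GFP that is switched on by Cre. Nuclei were isolated from P1 cortex and those with GFP were sorted by fluorescence-activated nuclei sorting, to obtain nuclear RNA of the Emx1 lineage. Markers of cells outside that lineage were also present in every library, as described below. Which exons are floxed is not given in the sources used here, and the labels do not say that each library came from a separate animal, so p-values measure only the spread between these libraries, which may be technical.

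KDM6B (JMJD3) is a histone demethylase that removes methyl groups from lysine 27 of histone H3 (H3K27), the repressive mark that is written by Polycomb repressive complex 2 (PRC2) through its catalytic subunit EZH2 or EZH1. In the newborn cortex glutamatergic neurons of all layers have been born and are extending axons and building synapses, the last progenitors are dividing, and the switch from neuron to glia production is under way. A nuclear transcriptome at this age therefore holds the programmes of young neurons, of progenitors and of the first astrocytes and oligodendrocyte precursors side by side. In such bulk samples fewer cells of a type and less RNA per cell cannot be told apart.

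The label of cortical nuclei was checked against 9 pallial neuron factors, such as Neurod6, which summed to 762 to 1334 FPKM in WT and 1234 to 2430 in Kdm6b-cKO. Emx1, whose promoter drives the Cre, stood at 3.46, 9.30 and 30.4 FPKM in WT against 5.42, 24.4 and 39.5 in Kdm6b-cKO (log2 difference 1.12 ± 0.56, limma adjusted p = 0.372), and the groups overlapped. The libraries differed from each other in depth and in a signal from receptor genes that cortex does not use, and both touch the comparison. Read back from the steps that 1 read makes in the FPKM values, WT libraries held the equivalent of 805148 to 3897011 reads and Kdm6b-cKO libraries 190337 to 2848171, with Kdm6b-cKO 5 (190337), Kdm6b-cKO 0 (342904), WT 4 (805148) and Kdm6b-cKO 1 (833446) under 1000000. Libraries are named here by the numbers 0 to 5 that their columns carry. In WT 2 to 5 and in Kdm6b-cKO 5 between 397 and 794 of the 1128 olfactory receptor genes had FPKM above 0, against 2 to 22 in the other 7 libraries. Those 5 libraries are called libraries with receptor signal below. Because 4 of the 5 are WT, receptor signal and genotype are partly confounded, and each group of genes is therefore given again with the signal as a term of the model, in the 7 libraries without it, and in the 8 libraries above 1000000 reads.

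Kdm6b itself, at chr11:69212016-69229696 on the minus strand of mm9, was measured at 51.0, 26.2, 40.0, 24.9, 49.9 and 34.6 FPKM in WT 0 to 5 and at 34.1, 35.6, 15.0, 18.7, 38.4 and 32.0 FPKM in Kdm6b-cKO 0 to 5. The groups overlapped, with only Kdm6b-cKO 2 and 3 below every WT library, and the log2 difference (Kdm6b-cKO minus WT) was -0.41 ± 0.29 (SE, n = 6 per genotype; limma adjusted p = 0.534; exact two-sided permutation p = 0.190). An FPKM over the whole gene does not check the deletion of single exons. For the genes that follow, the 3 FPKM values of a genotype are those of its lowest, median and highest library, the log2 difference is Kdm6b-cKO minus WT of log2(FPKM + 0.1), and the error is its SE with 6 libraries per genotype. Kdm6a, the X-linked H3K27 demethylase, stood at 3.01, 4.56 and 5.78 FPKM in WT against 3.23, 4.80 and 6.62 in Kdm6b-cKO (log2 difference 0.02 ± 0.33, limma adjusted p = 0.984) and also overlapped.

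No gene passed the threshold of a limma adjusted p under 0.05 with a change over 2-fold in either direction (0.00% of 16250 lower, 0.00% higher), so single genes and lists are described below by their values and not as having changed. Taking an unadjusted p below 0.05, 1263 genes (7.77%) had a lower mean in Kdm6b-cKO and 1089 (6.70%) a higher mean. The highest Kdm6b-cKO library was below the lowest WT library for 111 genes (0.683%), and the reverse held for 98 (0.603%). Genes that are named only because a count is small were named after their values were seen. These percentages are the background against which every count of list members is to be read. The median log2 difference over all genes tested was -0.25, with 10272 genes lower and 5978 higher, and it moved to -0.03 with the receptor signal as a term, to -0.12 in the libraries without that signal and to -0.18 above 1000000 reads. With each library weighted by its depth, 209 genes (1.29%) passed as lower and 195 (1.20%) as higher at an adjusted p under 0.05 and over 2-fold. The weights rest on depths that were themselves read from the FPKM steps.

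The lists fell on both sides of that median. Ribosomal protein, respiratory chain, proteasome, splicing and cell cycle genes and cortical progenitor markers had medians above 0, while channels, cholesterol synthesis genes, immediate early genes, clustered protocadherins and markers of astrocytes and the oligodendrocyte lineage had medians more than 0.2 below that of all genes.

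**Figure D1:**
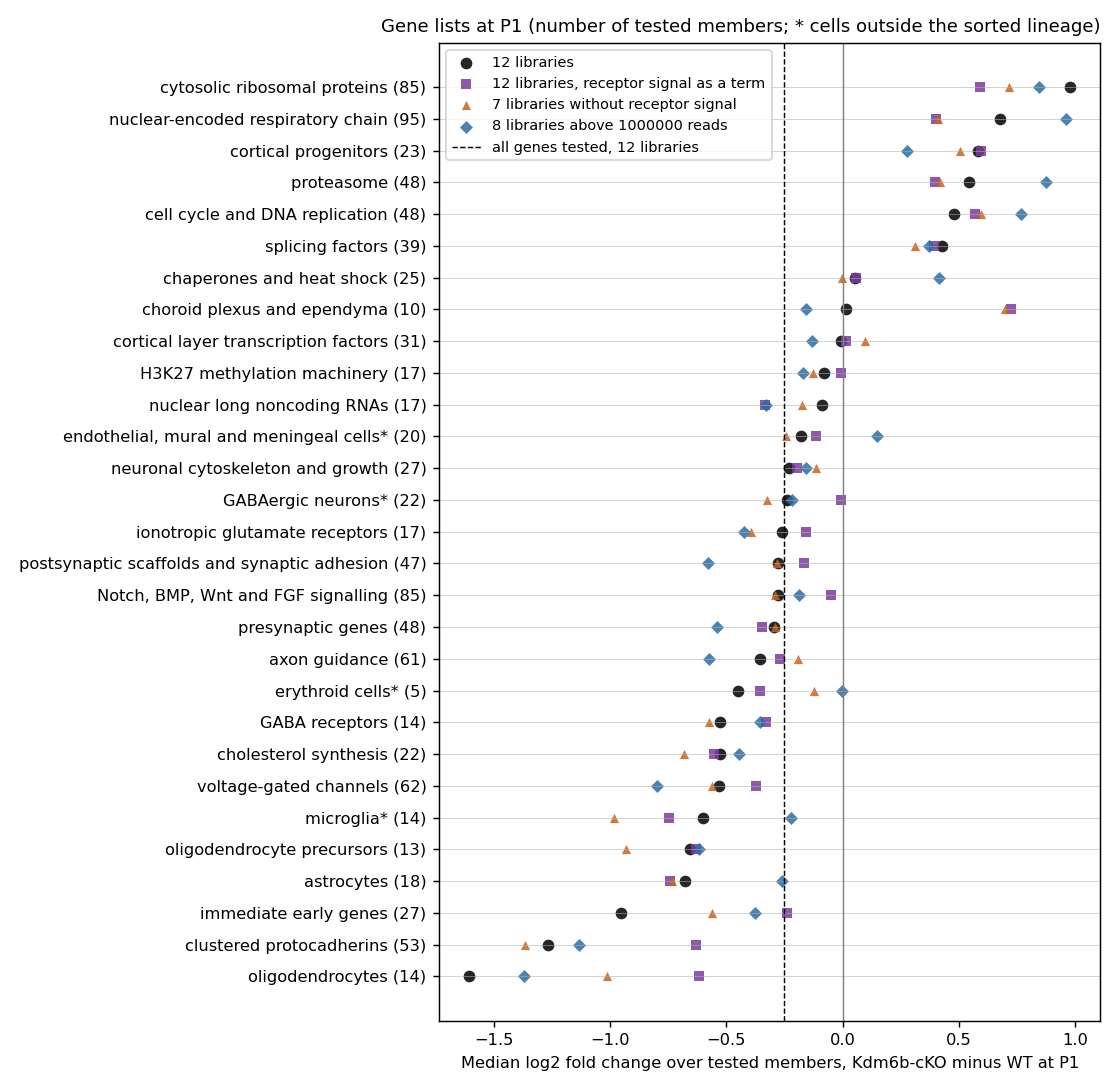
Median log2 fold change (Kdm6b-cKO minus WT at P1, x axis) over the tested members of 29 gene lists (y axis), with all 12 libraries (circles), with receptor signal as a term (squares), in the 7 libraries without that signal (triangles) and in the 8 libraries above 1000000 reads (diamonds); the dashed line is the median of all genes tested. Cytosolic ribosomal proteins (0.98) lie highest and oligodendrocyte genes (-1.61) lowest over the 12 libraries.

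The most uniform group was that of the cytosolic ribosomal proteins, the protein components of the ribosome. Of 88 listed genes 85 were tested, 82 had a positive log2 difference, and 68 (80.0%, against 6.70% of all genes) were higher with an unadjusted p below 0.05, while 1 was lower. That 1 gene was Rpl32l, a ribosomal protein-like locus, with a log2 difference of -2.65. The median was 0.98 and stayed between 0.40 and 1.02 under the receptor term, without the libraries with receptor signal, above 1000000 reads, with depth weights or depth as a term, and after quantile normalization, and between 0.84 and 1.14 when any 1 library was left out. Only 3 of the 85, Rps6, Rpl7a and Rps3, had groups that did not overlap, against 0.603% of all genes. Rps6, whose product is a component of the small subunit and a target of S6 kinase, stood at 68.3, 88.3 and 105 FPKM in WT against 109, 184 and 302 in Kdm6b-cKO (log2 difference 1.01 ± 0.26, limma adjusted p = 0.180). Rpl7a, of the large subunit, stood at 76.3, 118 and 139.7 FPKM in WT against 143, 223 and 400.2 in Kdm6b-cKO (log2 difference 1.06 ± 0.26, limma adjusted p = 0.178). Rps3, of the small subunit, stood at 105, 174 and 196 FPKM in WT against 204, 287 and 496 in Kdm6b-cKO (log2 difference 0.96 ± 0.27, limma adjusted p = 0.184). Rps12, also of the small subunit, stood at 81.5, 89.1 and 163 FPKM in WT against 86.9, 425 and 824 in Kdm6b-cKO (log2 difference 1.86 ± 0.43, limma adjusted p = 0.178). In each of these 4 genes the Kdm6b-cKO library nearest to WT was Kdm6b-cKO 4, the library with 2729947 reads and no receptor signal. The reads of ribosomal protein genes can be shared with their many processed pseudogenes, and how they were divided is not given in the sources used here.

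Many ribosomal protein mRNAs begin with a C followed by a run of pyrimidines, the terminal oligopyrimidine tract through which their translation is regulated. The first bases of 6 ribosomal protein genes with the smallest p-values among those that have such a tract are shown to let the tract be seen, from 10 bases before the annotated start site to 20 bases into the transcript, in RefSeq's GRCm38.p6 sequence, a later build than that of the FPKM files. Capitals mark the tract. Rps10, Rpl35a, Rps18, Rpl35 and Rpl38 were chosen for this display after their values were seen.
Rps6 (chr4:86857348-86857377, minus strand): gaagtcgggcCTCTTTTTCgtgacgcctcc
Rps10 (chr17:27635225-27635254, minus strand): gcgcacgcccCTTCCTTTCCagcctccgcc
Rpl35a (chr16:33056472-33056501, plus strand): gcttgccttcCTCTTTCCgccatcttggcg
Rps18 (chr17:33955646-33955675, minus strand): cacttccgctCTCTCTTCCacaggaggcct
Rpl35 (chr2:39005112-39005141, minus strand): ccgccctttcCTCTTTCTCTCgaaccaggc
Rpl38 (chr11:114668570-114668599, plus strand): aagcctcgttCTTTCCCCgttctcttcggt
A tract of a C and at least 4 further pyrimidines beginning exactly at the annotated start site was found in 15 of the 64 ribosomal protein genes matched in the promoter table (23.4%) and in 813 of 27025 genes in all (3.01%). The ribosomal protein genes with a match had a median log2 difference of 0.94 and the 49 without a match 0.91. The match needs the annotated start site to be exact, so a gene without a match can still have a tract. This split therefore cannot tell whether the tract bears on the difference. Among the other genes tested, the median was -0.22 for the 376 with the tract and -0.26 for the 12227 without.

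The nuclear-encoded respiratory chain genes, which encode subunits of the mitochondrial complexes that make ATP, had a median of 0.67 over 95 tested genes, of which 89 were positive and 43 (45.3%) were higher with an unadjusted p below 0.05 while none were lower. Ndufc1, of complex I, stood at 236, 436 and 536 FPKM in WT against 514, 1118 and 2707 in Kdm6b-cKO (log2 difference 1.45 ± 0.37, limma adjusted p = 0.180). Cox7c, of cytochrome c oxidase, stood at 299, 529.5 and 646 FPKM in WT against 702, 862 and 2599 in Kdm6b-cKO (log2 difference 1.08 ± 0.36, limma adjusted p = 0.211) and was the only one of the 95 whose groups did not overlap. The list median was 0.40 with the receptor term and 0.96 above 1000000 reads. It was lowest, 0.14, after quantile normalization, where the median of all genes was -0.02.

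Proteasome subunits, which form the particle that degrades ubiquitinated proteins, had a median of 0.54 over 48 tested genes, with 20 (41.7%) higher and 1 lower with an unadjusted p below 0.05. The 1 lower gene was Psme3. Psmd14, a deubiquitinase of the regulatory particle, stood at 63.1, 72.8 and 84.6 FPKM in WT against 104, 115 and 271 in Kdm6b-cKO (log2 difference 0.89 ± 0.25, limma adjusted p = 0.184), with all Kdm6b-cKO libraries above all WT libraries. Psmb6, a catalytic subunit, stood at 232, 383 and 489.9 FPKM in WT against 479, 681 and 1837 in Kdm6b-cKO (log2 difference 1.12 ± 0.35, limma adjusted p = 0.198) and its groups overlapped only through Kdm6b-cKO 1 (479) and WT 5. With depth weights 6 of the 48 passed the adjusted threshold as higher, against 0 as lower, beside 1.20% and 1.29% of all genes.

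Splicing factors had a median of 0.43 over 39 genes, 9 of them (23.1%) higher and 0 lower with an unadjusted p below 0.05. U2af1, the small subunit of the factor that recognises the 3′ splice site, stood at 40.7, 59.6 and 76.7 FPKM in WT against 72.4, 137 and 262 in Kdm6b-cKO (log2 difference 1.27 ± 0.30, limma adjusted p = 0.178). Tra2b, an activator of exon inclusion, stood at 49.7, 57.8 and 72.7 FPKM in WT against 74.1, 91.5 and 189 in Kdm6b-cKO (log2 difference 0.82 ± 0.24, limma adjusted p = 0.191). Hnrnpr, a heterogeneous nuclear ribonucleoprotein, stood at 19.2, 20.9 and 22.5 FPKM in WT against 23.7, 35.3 and 48.3 in Kdm6b-cKO (log2 difference 0.71 ± 0.22, limma adjusted p = 0.196). Neither Tra2b nor Hnrnpr overlapped between the groups. Chaperones and heat shock genes, whose products refold proteins, had a median of 0.05 over 25 genes, with 4 higher and 0 lower, and 0.41 above 1000000 reads. The 4 higher genes were Hspa4, Hspe1, Hsp90aa1 and Hsp90ab1.

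Within each genotype these lists varied from library to library, and the variation differed between lists. Relative to the WT mean, the ribosomal protein median per library ran from -0.48 to 0.49 in WT and from 0.16 to 1.56 in Kdm6b-cKO, where libraries 0 to 3 stood at 0.98 to 1.56 and libraries 4 and 5 at 0.16 and 0.20, within the WT range. WT 0 and WT 1, the WT libraries without receptor signal, stood at 0.27 and 0.49, and WT 2 and WT 3, with the signal, at -0.38 and -0.48. The respiratory chain and proteasome medians were highest in Kdm6b-cKO 2 (1.64 and 1.45) and next in Kdm6b-cKO 3 (1.03 and 0.94), while the other 4 Kdm6b-cKO libraries stood at 0.23 to 0.53 and at 0.10 to 0.43, against WT maxima of 0.39 and 0.41. Kdm6b-cKO 2 was also the library with the least 45S pre-ribosomal RNA (Rn45s, 28.7 FPKM, against 3423 and 3239 in Kdm6b-cKO 0 and 1, and 221 to 899 in the other libraries). Whether the ribosomal RNA left in a library bears on these medians was not tested.

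**Figure D2:**
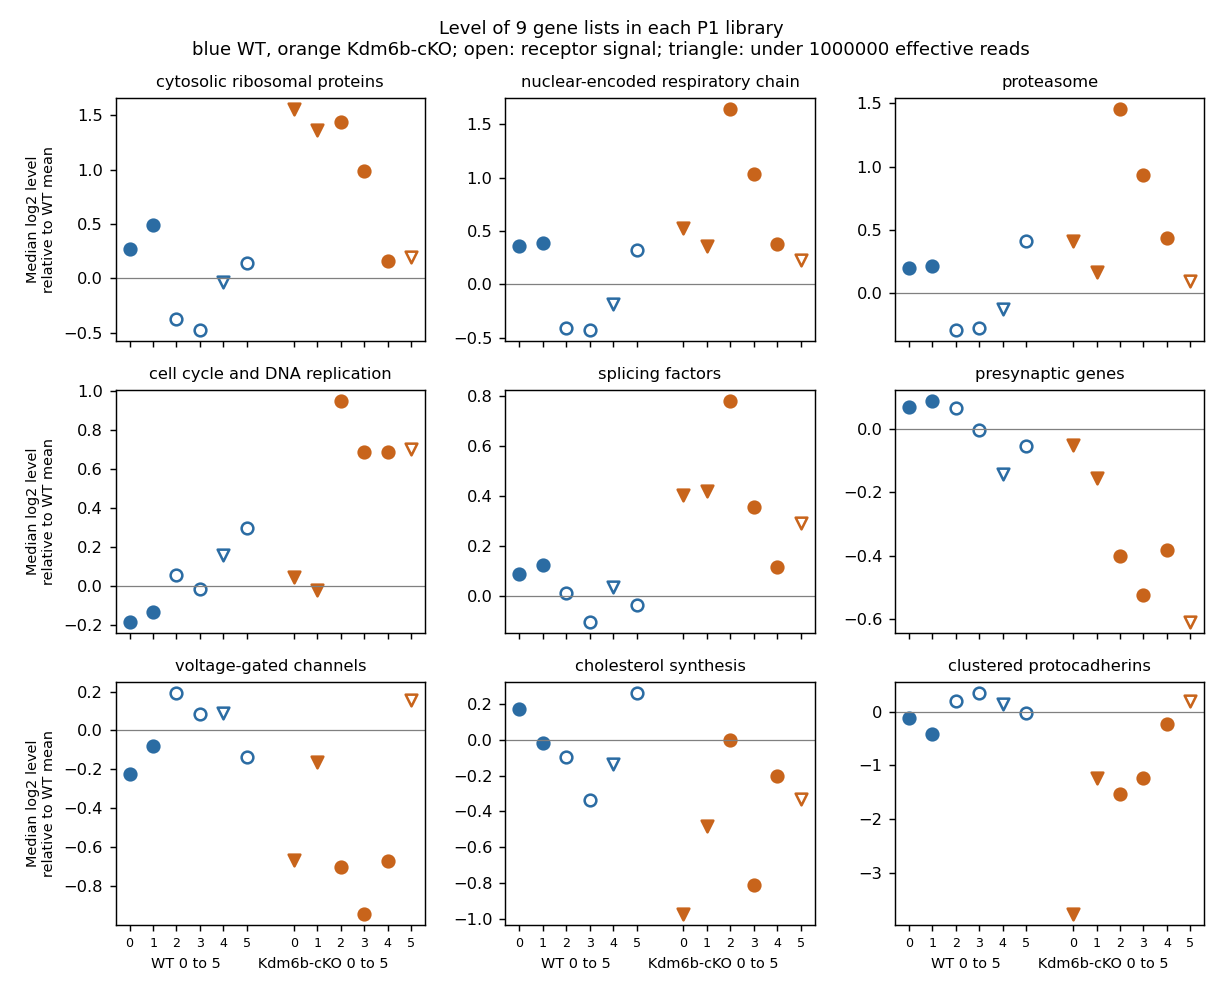
Median log2 level over the tested members of 9 gene lists in each of the 12 P1 libraries, relative to the mean of the WT libraries (y axis, log2); blue is WT, orange Kdm6b-cKO, open symbols have receptor signal and triangles have under 1000000 effective reads. Ribosomal proteins stand at 0.98 to 1.56 in Kdm6b-cKO 0 to 3 but at 0.16 and 0.20 in Kdm6b-cKO 4 and 5, and protocadherins at -3.77 in Kdm6b-cKO 0.

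The genes of these housekeeping lists are short and highly expressed, and both properties moved with the log2 difference over all genes. Over quintiles of the 13921 genes with a known transcript length, the median log2 difference was -0.02 in the shortest quintile (0.078 to 0.851 kb), then -0.16, -0.26 and -0.35, and -0.33 in the longest. The share of genes higher with an unadjusted p below 0.05 was 14.3% in the shortest quintile and 2.77% in the longest. By mean level the order was steeper, from -0.89 in the lowest quintile (mean of 1.00 to 2.01 FPKM) to 0.20 in the highest (above 28.7 FPKM). With the receptor signal as a term the lowest quintile stood at 0.46 and the highest at 0.03, so the order by level did not hold there. By the span of the locus, introns included, the medians of -0.27, -0.24, -0.20, -0.23 and -0.33 followed no order, while the share of genes higher with an unadjusted p below 0.05 went from 11.4% in the shortest quintile through 7.94%, 6.52% and 4.52% to 3.14% in the longest. At P30 the transcript-length quintiles ran from -0.09 to 0.02.

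**Figure D3:**
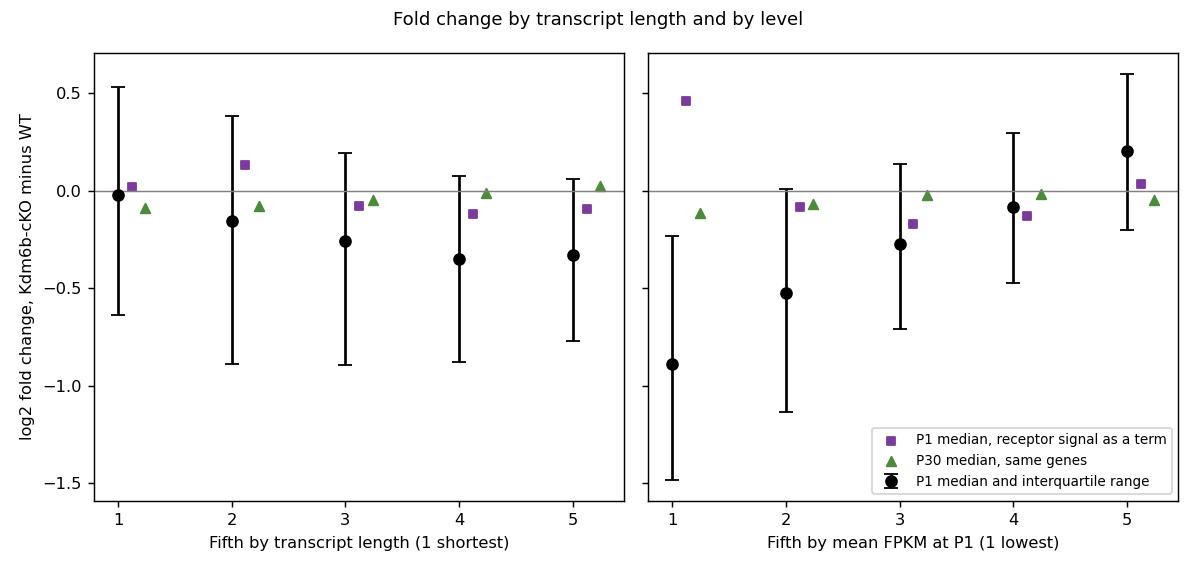
Log2 fold change (Kdm6b-cKO minus WT, y axis) over quintiles of genes by transcript length (left) and by mean FPKM at P1 (right); circles are P1 medians with bars for the interquartile range over genes, squares the P1 medians with receptor signal as a term and triangles the P30 medians. The P1 medians run from -0.02 to -0.33 with length and from -0.89 to 0.20 with level, and the squares do not follow the order by level.

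The lists had higher medians than the other genes of the shortest quintile, which were not matched to them in level or exact length. Within the shortest quintile, the 63 ribosomal protein genes had a median of 0.99 with 84.1% higher with an unadjusted p below 0.05, the 63 respiratory chain genes 0.72 with 52.4%, and the 23 proteasome genes 0.58 with 47.8%. The other 2636 genes of that quintile had a median of -0.09, with 11.4% higher. These are counts over genes of the same 12 libraries and no test was made of them.

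Cell cycle and DNA replication genes, which mark dividing progenitors, had a median of 0.48 over 48 genes, with 10 higher (20.8%) and 1 lower with an unadjusted p below 0.05 and 3 whose groups did not overlap, all higher. Top2a, the topoisomerase that untangles DNA in dividing cells, stood at 3.44, 6.02 and 6.48 FPKM in WT against 9.41, 11.8 and 13.9 in Kdm6b-cKO (log2 difference 1.09 ± 0.28, limma adjusted p = 0.180). Ccne1 (cyclin E1), which drives entry into S phase, stood at 0.521, 1.19 and 2.30 FPKM in WT against 2.97, 3.72 and 5.89 in Kdm6b-cKO (log2 difference 1.65 ± 0.47, limma adjusted p = 0.185). Cenpf, a kinetochore protein of mitosis, stood at 1.46, 3.25 and 3.73 FPKM in WT against 4.43, 6.02 and 9.58 in Kdm6b-cKO (log2 difference 1.16 ± 0.38, limma adjusted p = 0.210). In all 3 the lowest Kdm6b-cKO library lay above the highest WT library. Birc5 (survivin), a part of the chromosomal passenger complex, stood at 8.33, 15.3 and 20.7 FPKM in WT against 13.6, 26.9 and 54.0 in Kdm6b-cKO (log2 difference 1.00 ± 0.34, limma adjusted p = 0.214) and overlapped through Kdm6b-cKO 5. By role, 5 of 22 replication genes were higher and 1 lower (median 0.34), and 5 of 26 mitosis genes were higher and 0 lower (median 0.51). Unlike the ribosomal proteins, this list was highest in Kdm6b-cKO 2 to 5 (0.68 to 0.95 relative to the WT mean) and lay within the WT range in the shallow Kdm6b-cKO 0 and 1 (0.04 and -0.02). Its median was 0.57 with the receptor term, 0.59 without the libraries with receptor signal and 0.77 above 1000000 reads.

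E2F factors bind the promoters of many cell cycle genes. The 8 bases TTTCGCGC, 1 form of an E2F site, searched on both strands in the 250 bases before the start site, were found in 4 of 41 matched cell cycle genes (9.76%; Cdk1, Mcm5, Mcm6 and Uhrf1) and in 81 of 27025 promoters in all (0.3%). The matches in Cdk1 and Uhrf1 are shown because these 2 genes, of the 4, had an unadjusted p below 0.05, and in opposite directions; capitals mark the 8 bases, and both genes were chosen after their values were seen.
Cdk1 (GRCm38.p6 chr10:69353020-69353059, minus strand): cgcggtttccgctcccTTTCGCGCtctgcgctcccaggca
Uhrf1 (GRCm38.p6 chr17:56304112-56304151, plus strand): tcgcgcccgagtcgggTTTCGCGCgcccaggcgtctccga
The match begins 131 bases before the start site in Cdk1 and 185 bases before it in Uhrf1. Cdk1, the kinase that drives mitosis, stood at 1.90, 3.02 and 4.02 FPKM in WT against 2.88, 6.11 and 10.8 in Kdm6b-cKO (log2 difference 0.98 ± 0.39, limma adjusted p = 0.274). Uhrf1, which maintains DNA methylation at replication, stood at 4.43, 5.09 and 8.35 FPKM in WT against 0.908, 2.53 and 6.16 in Kdm6b-cKO (log2 difference -1.21 ± 0.49, limma adjusted p = 0.282) and was the 1 cell cycle gene that was lower with an unadjusted p below 0.05. Both genes overlapped between the groups.

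Markers of cortical progenitors had a positive median. Of 23 markers 17 had a positive log2 difference, 5 (21.7%) were higher and 0 lower with an unadjusted p below 0.05, and the median was 0.58 (0.41 over 14 radial glia genes and 0.69 over 9 genes of intermediate progenitors). Pax6, the transcription factor of dorsal radial glia, stood at 4.25, 5.35 and 6.24 FPKM in WT against 6.68, 7.58 and 9.29 in Kdm6b-cKO (log2 difference 0.59 ± 0.28, limma adjusted p = 0.343) and was the only marker whose groups did not overlap. Insm1, a zinc-finger factor of newborn neurons and basal progenitors, stood at 1.99, 5.16 and 5.60 FPKM in WT against 5.51, 10.0 and 18.4 in Kdm6b-cKO (log2 difference 1.24 ± 0.37, limma adjusted p = 0.192). Nes (nestin), an intermediate filament of neural progenitors, stood at 4.99, 6.88 and 9.69 FPKM in WT against 8.08, 13.4 and 24.9 in Kdm6b-cKO (log2 difference 0.93 ± 0.33, limma adjusted p = 0.222). Eomes (Tbr2), the defining factor of intermediate progenitors, stood at 1.33, 2.63 and 4.56 FPKM in WT against 3.00, 4.48 and 9.25 in Kdm6b-cKO (log2 difference 1.01 ± 0.44, limma adjusted p = 0.311), and its 2 highest libraries were the shallow Kdm6b-cKO 0 and 1. The list median kept its sign in every alternative and was smallest, 0.27, above 1000000 reads.

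Transcription factors of the cortical layers lay on both sides of 0. The median was -0.01 over 31 genes, with 4 lower and 2 higher with an unadjusted p below 0.05, and its sign changed between alternatives (-0.13 above 1000000 reads, 0.09 without the libraries with receptor signal). Single members stood out on either side. Mef2c (chr13:83643033-83806684), an activity-regulated transcription factor of cortical neurons, stood at 115, 137 and 169.5 FPKM in WT against 54.4, 65.9 and 93.1 in Kdm6b-cKO (log2 difference -1.01 ± 0.20, limma adjusted p = 0.160) with no overlap. Rorb, the nuclear receptor that marks layer 4, stood at 7.33, 13.7 and 21.8 FPKM in WT against 1.02, 3.83 and 8.46 in Kdm6b-cKO (log2 difference -1.99 ± 0.51, limma adjusted p = 0.180), and only Kdm6b-cKO 5 (8.46) reached the WT range. Etv1, a factor of layer 5, was also on the lower side with an unadjusted p below 0.05. Id2, an inhibitor of basic helix-loop-helix factors, stood on the higher side, at 228, 387 and 489.7 FPKM in WT against 447, 851 and 1483 in Kdm6b-cKO (log2 difference 1.14 ± 0.33, limma adjusted p = 0.190). By layer, 3 of 10 upper-layer genes and 1 of 12 deep-layer genes were lower, and 2 of 9 pallial neuron factors were higher.

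Genes of the neuronal cytoskeleton and of neuronal RNA binding had a median of -0.23, close to that of all genes, with 5 of 27 lower and 1 higher with an unadjusted p below 0.05. Dpysl2 (CRMP2; chr14:67421701-67487437, minus strand), which binds tubulin and promotes axon growth, showed the largest difference among them, at 203, 644 and 873 FPKM in WT against 50.0, 138 and 197 in Kdm6b-cKO (log2 difference -2.16 ± 0.41, limma adjusted p = 0.160). Its 3 highest libraries were WT 2, 5 and 3, all with receptor signal, and WT 1 (203) was only just above the highest Kdm6b-cKO library, and the log2 difference was -1.44 without the libraries with receptor signal and -2.13 above 1000000 reads. Mapt (tau), a microtubule-binding protein of axons, stood at 188, 201 and 272 FPKM in WT against 98.6, 157 and 184 in Kdm6b-cKO (log2 difference -0.54 ± 0.22, limma adjusted p = 0.279), again without overlap. The splicing regulators Rbfox1, Rbfox2 and Nova2 had log2 differences of -0.82 ± 0.23, -0.65 ± 0.21 and -0.89 ± 0.30 (limma adjusted p of 0.185, 0.204 and 0.211), all 3 with overlap. Nefm, a neurofilament subunit, was the 1 higher gene, with a log2 difference of 1.63.

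Presynaptic genes differed in their counts by role, and no test was made between roles. Of 48 tested genes 11 (22.9%, against 7.77% of all genes) were lower and 2 higher with an unadjusted p below 0.05, with a median of -0.29 against -0.25 for all genes. Genes of synaptic vesicles and of the SNARE fusion machinery accounted for 9 of the 11, out of 27 (33.3%), with a median of -0.61 that lay between -0.65 and -0.39 in all alternatives shown. The other 2 were among the 4 genes of transmitter transport (50.0%, median -0.90), Slc17a6 (-1.82) and Slc17a7. Active zone and endocytosis genes had a median of -0.08, with 0 of 17 lower and 2 higher, Erc1 (0.76) and Dnm1 (1.18). Above 1000000 reads that median was -0.44, beside -0.53 for vesicle and SNARE genes. Vamp2, the vesicle SNARE of transmitter release, stood at 86.6, 134 and 232 FPKM in WT against 13.3, 54.0 and 105 in Kdm6b-cKO (log2 difference -1.57 ± 0.41, limma adjusted p = 0.180). Stx1a, its partner in the plasma membrane, stood at 66.3, 118 and 178 FPKM in WT against 11.7, 55.0 and 72.1 in Kdm6b-cKO (log2 difference -1.53 ± 0.44, limma adjusted p = 0.190). Syp (synaptophysin), an abundant vesicle protein, stood at 67.2, 88.8 and 132 FPKM in WT against 20.5, 47.3 and 82.7 in Kdm6b-cKO (log2 difference -1.06 ± 0.29, limma adjusted p = 0.184). In all 3 the highest Kdm6b-cKO library, Kdm6b-cKO 4, reached the WT range, and the lowest was Kdm6b-cKO 5 for Vamp2 and Syp and Kdm6b-cKO 2 for Stx1a. Slc17a7 (VGLUT1), which loads glutamate into vesicles, stood at 5.65, 9.30 and 13.6 FPKM in WT against 1.28, 2.54 and 6.55 in Kdm6b-cKO (log2 difference -1.76 ± 0.43, limma adjusted p = 0.180), with the Kdm6b-cKO 1 value of 6.55 above the WT 5 value of 5.65 as the only overlap.

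Postsynaptic and adhesion genes had a median of -0.28 over 47 genes, with 7 (14.9%) lower and 2 higher with an unadjusted p below 0.05. Slitrk5, a synaptic adhesion protein, stood at 20.5, 26.2 and 34.8 FPKM in WT against 6.30, 13.3 and 15.1 in Kdm6b-cKO (log2 difference -1.11 ± 0.27, limma adjusted p = 0.178) and was the 1 gene without overlap. Lrrtm3, a leucine-rich adhesion protein of excitatory synapses, stood at 18.1, 33.5 and 40.3 FPKM in WT against 0.796, 11.4 and 23.2 in Kdm6b-cKO (log2 difference -2.16 ± 0.64, limma adjusted p = 0.191). Dlg2 (PSD-93), a postsynaptic scaffold, stood at 10.9, 15.7 and 22.5 FPKM in WT against 3.54, 7.53 and 14.1 in Kdm6b-cKO (log2 difference -1.22 ± 0.35, limma adjusted p = 0.190). The 2 higher genes were Iqsec1, at 7.37, 10.2 and 13.5 FPKM in WT against 11.2, 16.1 and 25.3 in Kdm6b-cKO (log2 difference 0.76 ± 0.27, limma adjusted p = 0.224), and Agap2, with a log2 difference of 1.49. Grip2 (chr6:91711503-91757387), a PDZ scaffold that binds AMPA receptors and is described among the largest differences below, is not on this list.

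Among ionotropic glutamate receptors 3 of the 6 NMDA receptor genes were lower with an unadjusted p below 0.05 and none higher. Over all genes these shares were 7.77% and 6.70%. Of 4 AMPA receptor genes none were lower or higher, and so few genes cannot set the 2 subfamilies apart. The medians were -0.65 for NMDA receptors, -0.15 for AMPA receptors and -0.22 for 7 kainate and delta receptors. Grin1, the obligatory NMDA receptor subunit, stood at 18.1, 23.8 and 28.3 FPKM in WT against 5.19, 12.0 and 26.3 in Kdm6b-cKO (log2 difference -0.90 ± 0.37, limma adjusted p = 0.292), and its 2 highest Kdm6b-cKO libraries, 0 and 1 (26.3 and 24.3), lay within the WT range. Grin2a and Grin2b, which give the receptor its kinetics, had log2 differences of -1.43 ± 0.58 and -0.69 ± 0.30 (limma adjusted p of 0.289 and 0.308). Grik5, a kainate receptor subunit, was the 1 higher gene, and its 12 values were 8.64, 14.3, 10.2, 8.73, 17.7 and 9.00 FPKM in WT 0 to 5 and 415, 289, 23.5, 22.2, 7.90 and 32.8 FPKM in Kdm6b-cKO 0 to 5. The values of 415 and 289 belong to the libraries with the most Rn45s, and the log2 difference went from 2.19 over all libraries to 0.68 above 1000000 reads. GABA receptor genes had a median of -0.53 over 14 genes, 2 of them lower with an unadjusted p below 0.05. Gabbr2, 1 of these and a subunit of the metabotropic GABA receptor, stood at 8.10, 11.7 and 14.7 FPKM in WT against 1.30, 4.50 and 12.5 in Kdm6b-cKO (log2 difference -1.39 ± 0.44, limma adjusted p = 0.1995).

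Voltage-gated and related ion channels set the firing pattern of neurons and mature over the first postnatal weeks. Of 62 tested genes 49 had a negative log2 difference, 12 (19.4%) were lower and 1 (1.61%) higher with an unadjusted p below 0.05, and the median was -0.53. By ion, 8 of 40 potassium channel genes were lower with a median of -0.72, 2 of 7 sodium channel genes with -0.45 and 2 of 15 calcium channel genes with -0.21. Hcn3, a pacemaker channel, stood at 9.12, 14.3 and 15.8 FPKM in WT against 1.85, 5.44 and 10.2 in Kdm6b-cKO (log2 difference -1.43 ± 0.39, limma adjusted p = 0.182). Kcnip3, an auxiliary subunit of A-type potassium channels, stood at 14.3, 16.0 and 19.7 FPKM in WT against 6.68, 8.46 and 15.3 in Kdm6b-cKO (log2 difference -0.88 ± 0.26, limma adjusted p = 0.190). Kcnab1 and Kcnab2, cytoplasmic beta subunits, had groups that did not overlap, with log2 differences of -0.89 ± 0.37 and -1.38 ± 0.55 (limma adjusted p of 0.299 and 0.275). Kcnip2 also did not overlap, at 12.1, 17.3 and 21.2 FPKM in WT against 0, 9.50 and 11.5 in Kdm6b-cKO (log2 difference -1.84 ± 0.94, limma adjusted p = 0.384), where Kdm6b-cKO 0 was listed at 0. Kcnn2 (SK2), a calcium-activated potassium channel, was the 1 higher gene, at 11.0, 13.0 and 18.8 FPKM in WT against 19.0, 24.1 and 39.1 in Kdm6b-cKO (log2 difference 0.90 ± 0.24, limma adjusted p = 0.180), with no overlap. The list median was -0.37 with the receptor term, -0.56 without the libraries with receptor signal and -0.80 above 1000000 reads. Kdm6b-cKO 1 and 5, both under 1000000 reads, lay within the WT range of -0.23 to 0.19, and the other 4 Kdm6b-cKO libraries, at -0.94 to -0.67, below it.

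Immediate early genes, which neurons switch on within minutes of activity, had a low list median, -0.95, that depended on the processing more than most. Of 27 tested genes 5 (18.5%) were lower and 2 (7.41%) higher with an unadjusted p below 0.05. The median was -0.24 with the receptor term, -0.38 above 1000000 reads and -0.06 after quantile normalization, and lay between -1.07 and -0.42 when any 1 library was left out. Kdm6b-cKO 0 stood at -2.43 relative to the WT mean and the other Kdm6b-cKO libraries at -0.59 to 0.48. Single members were less dependent on that library. Nr4a2, an orphan nuclear receptor that in cortex also marks the subplate and claustrum, stood at 23.2, 30.2 and 37.4 FPKM in WT against 4.66, 13.3 and 20.3 in Kdm6b-cKO (log2 difference -1.32 ± 0.32, limma adjusted p = 0.178). Egr1, a zinc-finger factor, stood at 11.0, 13.3 and 19.3 FPKM in WT against 1.01, 3.90 and 10.5 in Kdm6b-cKO (log2 difference -1.99 ± 0.54, limma adjusted p = 0.182), and neither gene overlapped. Ier5, a nuclear protein induced by growth factors and stress, stood on the opposite side, at 6.04, 9.25 and 14.6 FPKM in WT against 15.4, 19.3 and 23.0 in Kdm6b-cKO (log2 difference 1.08 ± 0.27, limma adjusted p = 0.180), again without overlap. Arc, which controls AMPA receptor traffic, stood at 2.26, 3.14 and 3.83 FPKM in WT against 0, 0.185 and 5.45 in Kdm6b-cKO (log2 difference -2.81 ± 0.93, limma adjusted p = 0.211), and its highest value of all 12 libraries was in Kdm6b-cKO 5, while Kdm6b-cKO 0 and 1 were listed at 0. AP-1 factors had a median of -0.13 over 7 genes, with 0 lower and 1 higher (Jund).

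The cyclic AMP response element, TGACGTCA, through which CREB acts on many activity-induced genes, was found on either strand in the 250 bases before the start site of 3 of 24 matched immediate early genes (12.5%; Btg2, Dusp1 and Maff) and in 478 of 27025 promoters (1.77%). The Btg2 match is shown because it is the only one of the 3 in a gene with an unadjusted p below 0.05; capitals mark the element, and Btg2 was chosen after its values were seen.
Btg2 (GRCm38.p6 chr1:134079298-134079337, minus strand): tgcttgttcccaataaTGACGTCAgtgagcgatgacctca
The element begins 166 bases before the start site. Btg2, an antiproliferative factor induced in newborn neurons and by activity, stood at 4.25, 9.98 and 12.3 FPKM in WT against 0.121, 3.56 and 10.6 in Kdm6b-cKO (log2 difference -1.86 ± 0.77, limma adjusted p = 0.292), with Kdm6b-cKO 3 lowest and Kdm6b-cKO 2, 4 and 5 within the WT range.

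Clustered protocadherins, cell surface proteins that give each neuron its own adhesive identity, had a low list median. Of 58 genes 53 were tested, 52 had a negative log2 difference, and 16 (30.2%) were lower and 0 higher with an unadjusted p below 0.05, with a median of -1.27. Pcdhgc4 stood at 22.0, 28.7 and 40.6 FPKM in WT against 0, 5.32 and 26.3 in Kdm6b-cKO (log2 difference -2.94 ± 0.99, limma adjusted p = 0.211), with Kdm6b-cKO 0 listed at 0 and only Kdm6b-cKO 4 in the WT range. Pcdha3 stood at 4.13, 5.27 and 6.19 FPKM in WT against 0, 2.42 and 3.69 in Kdm6b-cKO (log2 difference -1.72 ± 0.75, limma adjusted p = 0.315) and was the 1 member without overlap, with Kdm6b-cKO 5 listed at 0. The median was -0.63 with the receptor term, -1.36 without the libraries with receptor signal and -1.13 above 1000000 reads, and -0.58 with a pseudocount of 1. Per library it stood at -3.77 in Kdm6b-cKO 0, at -1.53 to -1.23 in Kdm6b-cKO 1 to 3, and at -0.23 and 0.21 in Kdm6b-cKO 4 and 5, which lie in the WT range of -0.42 to 0.36. Many of these genes, though not all, share exons with others of their cluster, so reads could be split between those that do. Most of the list stands at a few FPKM. Depending on the library, 1 read was worth between 0.142 and 2.92 FPKM on a transcript of 2 kb.

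Families that cortex does not use followed the receptor signal of the libraries, which for olfactory receptors was fixed by the definition of the signal. Their members could pass the mean of 1 FPKM through the libraries with the signal, mostly WT. That filter can itself make their medians negative. The 290 tested olfactory receptor genes had a median of -1.11, the 55 vomeronasal receptor genes -1.01 and the 9 Hox genes -1.48. With the receptor signal as a term these medians were 1.15, 1.08 and 0.94, and in the libraries without the signal all 3 rounded to 0.00. These families are given only to show how far the signal reaches, and no direction is read from them.

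Cholesterol synthesis genes supply the sterol that growing neurites and later myelin require. Of 22 genes 20 had a negative log2 difference, 8 (36.4%) were lower and 0 higher with an unadjusted p below 0.05, and the median was -0.53. That median lay between -0.83 and -0.45 under all alternatives shown, including -0.55 with the receptor term and -0.68 without the libraries with receptor signal. Mvd, which makes isopentenyl diphosphate, stood at 26.7, 35.2 and 55.2 FPKM in WT against 9.39, 16.6 and 27.01 in Kdm6b-cKO (log2 difference -1.08 ± 0.29, limma adjusted p = 0.182). Sqle (squalene epoxidase), a rate-limiting enzyme of the pathway, stood at 60.2, 66.0 and 123 FPKM in WT against 22.5, 31.1 and 78.6 in Kdm6b-cKO (log2 difference -1.15 ± 0.31, limma adjusted p = 0.182), with only Kdm6b-cKO 4 (78.6) in the WT range. Srebf2, the transcription factor that drives the pathway, stood at 18.3, 28.7 and 36.4 FPKM in WT against 1.19, 11.9 and 21.9 in Kdm6b-cKO (log2 difference -1.77 ± 0.59, limma adjusted p = 0.211), and its 3 lowest libraries were Kdm6b-cKO 5, 2 and 3. Hsd17b7 was the 1 gene without overlap, at 4.99, 6.50 and 8.26 FPKM in WT against 0, 2.59 and 4.74 in Kdm6b-cKO (log2 difference -2.24 ± 0.81, limma adjusted p = 0.233), with Kdm6b-cKO 0 listed at 0. Per library the list stood at -0.34 to 0.26 in WT and at -0.97 to 0.00 in Kdm6b-cKO, lowest in Kdm6b-cKO 0 and 3.

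Axon guidance genes had a median of -0.36 over 61 genes, with 9 (14.8%) lower and 2 higher with an unadjusted p below 0.05. Among ligands 3 of 32 were lower and 1 higher (Efnb2, 0.79), and among receptors 6 of 29 were lower and 1 higher. The higher receptor was Epha5, a receptor for ephrin-A ligands, at 12.1, 14.8 and 30.3 FPKM in WT against 22.0, 31.6 and 50.9 in Kdm6b-cKO (log2 difference 0.99 ± 0.28, limma adjusted p = 0.185). Nrp2, a semaphorin receptor, stood at 16.8, 27.9 and 29.3 FPKM in WT against 6.03, 10.2 and 23.5 in Kdm6b-cKO (log2 difference -1.17 ± 0.37, limma adjusted p = 0.203). Efna5, an ephrin-A ligand of Epha5, stood at 13.3, 23.3 and 26.9 FPKM in WT against 1.75, 8.36 and 31.2 in Kdm6b-cKO (log2 difference -1.38 ± 0.50, limma adjusted p = 0.238). All 3 genes overlapped. Genes of Notch, BMP, Wnt and FGF signalling had a median of -0.28 over 85 genes, with 5 (5.88%, below the 7.77% of all genes) lower and 0 higher, and -0.05 with the receptor term. The 5 were Id3, Wnt7b, Dkk3, Etv5 and Ntrk2, of which Ntrk2 (TrkB), the receptor for BDNF, stood at 23.1, 33.7 and 40.3 FPKM in WT against 16.7, 18.1 and 26.6 in Kdm6b-cKO (log2 difference -0.71 ± 0.22, limma adjusted p = 0.195).

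Astrocyte and oligodendrocyte precursor markers had negative medians. Of 18 astrocyte genes 6 were lower and 0 higher with an unadjusted p below 0.05, with a median of -0.68 that was -0.26 above 1000000 reads, where all genes stood at -0.18. Gfap, the intermediate filament of astrocytes, stood at 13.5, 18.8 and 23.3 FPKM in WT against 2.38, 10.0 and 12.7 in Kdm6b-cKO (log2 difference -1.25 ± 0.40, limma adjusted p = 0.203), with no overlap. Gja1 (connexin 43), which couples astrocytes, stood at 15.5, 31.0 and 35.5 FPKM in WT against 4.01, 14.0 and 22.7 in Kdm6b-cKO (log2 difference -1.20 ± 0.39, limma adjusted p = 0.209), and Aqp4, their water channel, had a log2 difference of -1.47 ± 0.55 (limma adjusted p = 0.247). Of 13 tested genes of oligodendrocyte precursors 6 were lower and 0 higher, with a median of -0.66 that lay between -0.94 and -0.57 in all alternatives shown. Sox10, a transcription factor of oligodendrocyte maturation, stood at 4.84, 6.10 and 6.65 FPKM in WT against 1.16, 2.02 and 3.77 in Kdm6b-cKO (log2 difference -1.41 ± 0.39, limma adjusted p = 0.183).

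Markers of cell types outside the sorted lineage, and of choroid plexus, were present in every library, and their summed levels overlapped between the genotypes. The summed level of 22 GABAergic neuron genes was 808 to 1554 FPKM in WT and 995 to 2894 in Kdm6b-cKO, and none of its genes was at 0 in all libraries. Sst (somatostatin), a peptide of GABAergic neurons, stood at 294, 504 and 725 FPKM in WT against 476, 613 and 1401 in Kdm6b-cKO (log2 difference 0.59 ± 0.35, limma adjusted p = 0.452). Its groups overlapped, and it was named after its values were seen. Of these 22 genes 3 were lower and 1 higher with an unadjusted p below 0.05, with a list median of -0.24. The 16 microglia genes summed to 115 to 236 FPKM in WT and 80.2 to 233 in Kdm6b-cKO, the 21 endothelial, mural and meningeal genes to 203 to 323 and 168 to 329, and the 12 choroid plexus and ependyma genes to 70.6 to 551 and 298 to 960. The 9 listed erythroid genes summed to 566 to 1171 FPKM in WT and 864 to 2019 in Kdm6b-cKO, nearly all of it Hba-a1 and Hbb-b1, with Hbb-bh1 at 0 in all 12 libraries. Hba-a1 and Hba-a2 are near-identical copies between which reads can be split, so neither is read alone. The microglia list, which like the glial lists had a negative median, stood at -0.60 over 14 tested genes, with Csf1r (-1.12) and Cx3cr1 (-2.27) lower and Aif1 (1.44) higher with an unadjusted p below 0.05. Its median lay between -0.82 and -0.36 when any 1 library was left out and was -0.22 above 1000000 reads, with no change of sign in any alternative. The medians of the endothelial, erythroid, choroid plexus and GABAergic lists changed sign between the alternatives. The part of these cells in the differences above was not tested.

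The listed long noncoding RNAs include the most abundant transcript of the data. Malat1, a component of nuclear speckles, stood at 2934, 5626 and 7366 FPKM in WT against 8009, 15994 and 27202 in Kdm6b-cKO (log2 difference 1.65 ± 0.57, limma adjusted p = 0.216), with no overlap. Gas5, a host of small nucleolar RNAs that carries a terminal oligopyrimidine tract, stood at 77.5, 118 and 201 FPKM in WT against 145, 339 and 391 in Kdm6b-cKO (log2 difference 1.14 ± 0.32, limma adjusted p = 0.183). Pantr1 stood at 142, 224 and 273 FPKM in WT against 223, 473 and 760.0 in Kdm6b-cKO (log2 difference 1.11 ± 0.31, limma adjusted p = 0.184). Snhg1, another such host, stood at 14.3, 17.8 and 41.0 FPKM in WT against 18.5, 61.0 and 114 in Kdm6b-cKO (log2 difference 1.37 ± 0.44, limma adjusted p = 0.206). The 4 higher members set against 1 lower, Peg13 (-1.65), out of 17. The median of the list was -0.09 and changed sign between alternatives.

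The machinery that writes and removes H3K27 methylation had a median of -0.08 over 17 genes, with 1 lower and 1 higher with an unadjusted p below 0.05. These were the alternative catalytic subunits of PRC2. Ezh2, the form of dividing cells, stood at 21.5, 23.7, 24.5, 18.6, 22.4 and 24.9 FPKM in WT 0 to 5 and at 73.7, 85.1, 51.8, 25.9, 25.9 and 48.8 FPKM in Kdm6b-cKO 0 to 5, a log2 difference of 1.06 ± 0.30 (limma adjusted p = 0.185). No library overlapped, but Kdm6b-cKO 3 and 4 were only just above the highest WT library, and the difference was 0.53 above 1000000 reads. Ezh1, the form of non-dividing cells, stood at 9.60, 10.3 and 12.3 FPKM in WT against 3.28, 5.13 and 10.1 in Kdm6b-cKO (log2 difference -0.92 ± 0.35, limma adjusted p = 0.249), with Kdm6b-cKO 0 and 4 in the WT range. The 6 genes of the PRC2 core had a median of 0.38.

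The single genes with the largest differences were taken among the 96 lower and 94 higher genes whose groups did not overlap, whose mean was at least 5 FPKM and whose locus was at least 300 bases. Non-overlap and size chose them, so their P1 values are a description. The 15 lowest had log2 differences of -3.01 to -1.90 (limma adjusted p of 0.160 to 0.399), and the 15 highest of 1.45 to 2.68 (0.160 to 0.236). All 30 kept their direction with the receptor term, without the libraries with receptor signal, above 1000000 reads, with depth weights and after quantile normalization. For all but the last of these alternatives, the choice of genes without overlap fixed the direction in advance. With depth weights 7 of the 15 lower and 12 of the 15 higher genes passed the adjusted threshold, beside 1.29% and 1.20% of all genes. The same 12 libraries chose these genes, which raises such counts, so nothing is concluded from them. In 11 of the 15 lower genes the lowest of the 12 libraries was Kdm6b-cKO 0, which was listed at 0 in 8 of them, and log2 differences that include a 0 depend on the pseudocount of 0.1.

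Rnd1, a small GTPase that loosens the actin cytoskeleton, had the largest difference, with 14.3, 12.9, 15.6, 15.2, 11.6 and 8.21 FPKM in WT 0 to 5 and 0, 0.599, 5.33, 2.28, 6.39 and 2.60 FPKM in Kdm6b-cKO 0 to 5. The log2 difference was -3.01 over all libraries and -1.57 above 1000000 reads. Bcl2, which protects cells from apoptosis, stood at 22.6, 27.7 and 32.9 FPKM in WT against 0.413, 6.83 and 19.5 in Kdm6b-cKO (log2 difference -2.33 ± 0.64, limma adjusted p = 0.183). Dmtn (dematin), an actin-bundling protein, stood at 36.2, 61.1 and 71.7 FPKM in WT against 1.56, 17.3 and 32.7 in Kdm6b-cKO (log2 difference -2.14 ± 0.55, limma adjusted p = 0.180). Grip2, the AMPA receptor scaffold named above, stood at 14.6, 18.2 and 26.9 FPKM in WT against 2.22, 4.38 and 10.6 in Kdm6b-cKO (log2 difference -2.08 ± 0.39, limma adjusted p = 0.160), and the value above 1000000 reads was -2.48. Grm2, a presynaptic metabotropic glutamate receptor, stood at 9.38, 12.0 and 14.3 FPKM in WT against 0.560, 3.62 and 6.65 in Kdm6b-cKO (log2 difference -1.97 ± 0.50, limma adjusted p = 0.180). Cldn3 (-2.66), Frrs1l (-2.27), Prex1 (-2.18), Dpysl2 (-2.16), Arl15 (-2.07), Egr1 (-1.99), Sgk1 (-1.99), Drd1 (-1.92), Slc37a1 (-1.91) and Etv5 (-1.90) complete the 15. Among them are a tight junction protein (Cldn3), a factor for AMPA receptor assembly (Frrs1l), a Rac exchange factor (Prex1), a dopamine receptor (Drd1) and a transcription factor downstream of FGF (Etv5). Without Kdm6b-cKO 0 the log2 difference was -1.34 for Prex1, -0.99 for Arl15, -0.74 for Sgk1, -1.001 for Drd1, -1.01 for Slc37a1 and -0.97 for Etv5, and without Kdm6b-cKO 5 it was -1.42 for Frrs1l. Sgk1, a kinase induced by glucocorticoids, stood at 9.82 to 24.3 FPKM in 5 Kdm6b-cKO libraries against 26.4 to 33.0 in WT, Kdm6b-cKO 0 was listed at 0, and the log2 difference was -0.37 above 1000000 reads.

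On the other side, Xpa (chr4:46188094-46209183), which verifies damage in nucleotide excision repair, stood at 3.81, 6.88 and 19.8 FPKM in WT against 20.7, 40.1 and 60.0 in Kdm6b-cKO (log2 difference 2.26 ± 0.39, limma adjusted p = 0.160), a difference that lay between 2.07 and 2.54 when any 1 library was left out. WT 4 (19.8) stood above the other WT libraries (at most 7.95) and just below Kdm6b-cKO 4 and 5 (20.7 and 21.1). Mdk (midkine; chr2:91762346-91772454), a heparin-binding growth factor of the developing brain, stood at 65.4, 125 and 203 FPKM in WT against 205, 378 and 667 in Kdm6b-cKO (log2 difference 1.70 ± 0.34, limma adjusted p = 0.160). Siva1 (chr12:113883039-113887363), a proapoptotic protein, stood at 11.5, 15.9 and 21.0 FPKM in WT against 29.7, 42.8 and 81.1 in Kdm6b-cKO (log2 difference 1.505 ± 0.27, limma adjusted p = 0.160). Rdx (radixin; chr9:51810166-51896843), which links actin to the plasma membrane, stood at 19.7, 22.0 and 24.96 FPKM in WT against 42.1, 57.1 and 138 in Kdm6b-cKO (log2 difference 1.48 ± 0.27, limma adjusted p = 0.160). For Siva1 and Rdx every Kdm6b-cKO library was at least 29.7 and 42.1 FPKM, and every WT library at most 21.0 and 24.96. Lsm7, a part of the U6 snRNA-binding ring, stood at 159.5, 332 and 421 FPKM in WT against 441, 846 and 2479 in Kdm6b-cKO (log2 difference 1.62 ± 0.40, limma adjusted p = 0.180). Emp3 (2.68), Cahm (1.91), Tekt2 (1.83), Malat1 (1.65), Srrd (1.60), Ankrd37 (1.59), Wdr53 (1.51), Crabp2 (1.47), Ogdhl (1.46) and Mrps18c (1.45) complete the 15. They include a tektin of ciliary microtubules (Tekt2), a retinoic acid-binding protein (Crabp2) and a protein of the mitochondrial ribosome (Mrps18c). For Emp3, WT 5 was listed at 0, and the log2 difference was 1.56 without it.

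**Figure D4:**
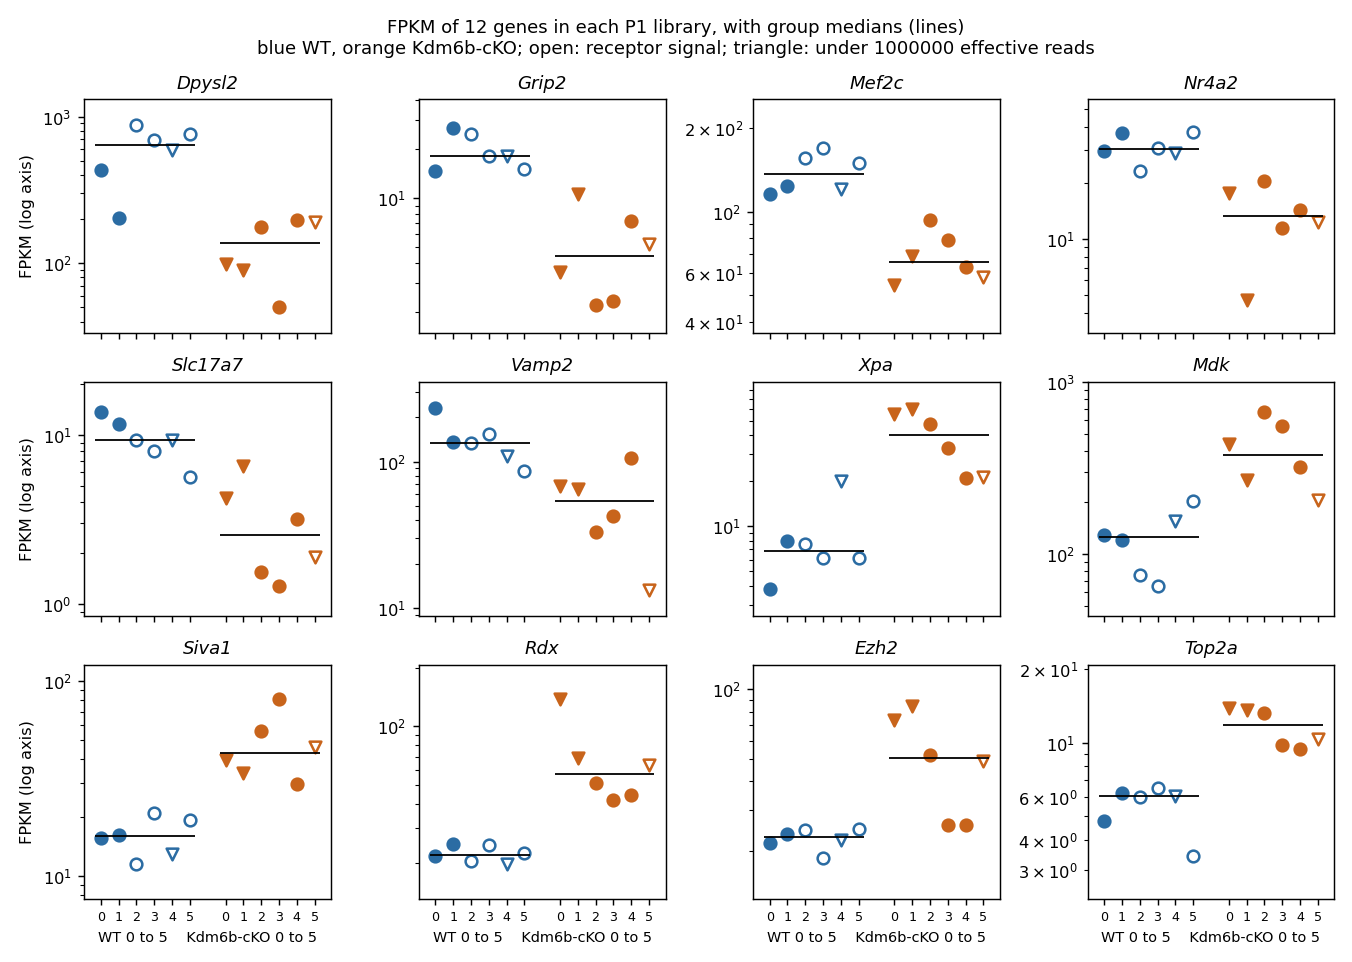
FPKM (y axis, log scale) of 12 genes in each of the 6 WT (blue) and 6 Kdm6b-cKO (orange) libraries at P1, with group medians as lines; open symbols have receptor signal and triangles have under 1000000 effective reads. The groups do not overlap for any of the 12 genes except Slc17a7 and Vamp2, and Xpa in WT 4 (19.8 FPKM) lies just under the lowest Kdm6b-cKO library (20.7).

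The P30 libraries share no sample with P1 and give an independent value for genes chosen by their P1 pattern. Of the 111 genes lower without overlap at P1, 106 were tested at P30 and 69 of them (65.1%) were again lower, beside 54.8% of all 13289 genes tested at P30. At an unadjusted p below 0.05, 10 of the 106 (9.43%, beside 7.37%) were lower and 4 higher at P30. Of the 98 genes higher without overlap at P1, 92 were tested at P30 and 48 (52.2%, beside 45.2%) were again higher, 6 of them (6.52%, beside 5.34%) with an unadjusted p below 0.05, and 5 were lower. Among genes called with depth weights at P1, 140 of 179 lower genes and 77 of 183 higher genes had the same sign at P30. Of all genes tested at P30, 54.8% were lower and 45.2% higher. The share of the lower genes was above its background, and that of the higher genes was below its background.

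**Figure D5:**
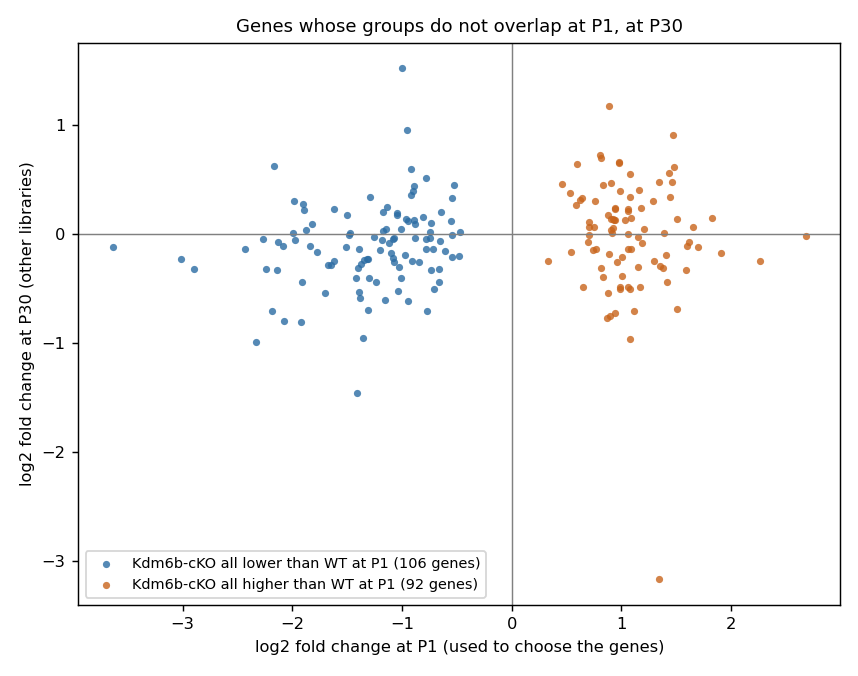
Log2 fold change (Kdm6b-cKO minus WT) at P1 (x axis) and at P30 (y axis) of the 106 lower (blue) and 92 higher (orange) genes whose P1 groups did not overlap and that were tested at P30; each point is a gene. Of the blue points 69 lie below 0 at P30 and of the orange points 48 lie above 0, with Sox10 at -1.41 and -1.46.

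Gene by gene, some had like values at P1 and P30 and others did not. None of the genes set side by side here passed adjustment for a difference between the ages. Most were named for their P1 values, which also enter that test. Sox10 stood at -1.41 ± 0.39 at P1 and -1.46 ± 0.23 at P30 (limma adjusted p = 0.0204 at P30), and Stx1a at -1.53 ± 0.44 and -0.89 ± 0.14. Rorb stood at -1.99 ± 0.51 and -1.37 ± 0.37, and Bcl2 at -2.33 and -0.99. Dpysl2, at -2.16 ± 0.41 at P1, stood at 0.62 ± 0.42 at P30 (difference between the ages, limma interaction adjusted p = 0.0713), Grip2 at -2.08 and -0.11 (0.0791), Xpa at 2.26 and -0.24 (0.0704) and Mef2c at -1.01 and 0.04 (0.117). Of 12644 genes that could be tested for a difference between the ages, 1668 (13.2%) had an unadjusted interaction p below 0.05 and 1, Ivns1abp, passed adjustment.

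Of the lists with the highest P1 medians, ribosomal proteins had a P30 median of -0.05, the respiratory chain -0.02 and the proteasome -0.13, and 42 of 84, 27 of 92 and 16 of 47 of their genes (50.0%, 29.3% and 34.0%, beside 13.2% of all genes) had an unadjusted interaction p below 0.05. These lists were picked by their P1 medians and the interaction uses the same P1 values, so that choice can raise the shares. Channels (-0.11), presynaptic genes (0.00) and cholesterol synthesis genes (-0.16) were also nearer to 0 at P30 than at P1, and protocadherins stood at -0.33 over 23 tested genes. Cortical progenitor markers were at 0.21 over 14 tested genes, 11 of them with a positive log2 difference, splicing factors at 0.20 and oligodendrocyte genes at -0.72. GABAergic neuron genes, with a median of -0.24 at P1, stood at 1.61 over 11 tested genes at P30, of which 7 were higher with an unadjusted p below 0.05.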

How the data were processed

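Per the labels and the submitters' processing notes, total RNA of the sorted nuclei was made into libraries with the VAHTS Universal V10 kit, sequenced on an AVITI or NovaSeq (which library on which is not given), aligned with HISAT2 to mm9 and quantified with Cuffdiff; the authors deposited an FPKM value per gene and library, without read counts. The deposited Cuffdiff comparison tables (group means, fold changes, p and q values) were not used, except for locus coordinates.

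Genes averaging 1 FPKM or more across the 12 libraries of P1 were fitted with limma 3.58.1 (R 4.3.3, lmFit and eBayes with trend, two-sided) on log2(FPKM + 0.1), without covariates. The p-values were adjusted by Benjamini-Hochberg over all 16250 genes. Adding 0.1 shrinks the fold changes of low genes, but a library listed at 0 can enlarge them. For Sgk1 the log2 difference was -1.99, and -0.74 without Kdm6b-cKO 0. Genotypes came from the labels, and P30 was fitted apart. Single genes were also given an exact permutation test over all 924 splits, whose smallest p is 0.00216. The fit was tested on simulated data. Depth was estimated from the FPKM steps of 1 read, taking fragments of 200 bases. Lists are described by counts and medians, with no set test. Named genes are Kdm6b, Kdm6a and Sox10, the 15 largest non-overlapping differences in each direction (mean of at least 5 FPKM, locus of at least 300 bases), and in each list up to 4 members with the smallest p and those without overlap; a few genes that this rule names are not reported here. The members and lists were chosen with earlier results of these data known. Promoters of 27025 genes came from RefSeq (GRCm38.p6) and transcript lengths of 13921 tested genes from GENCODE vM1 on NCBIM37. Tables were handled in pandas 2.3.3 (Python 3.11.15), and scipy 1.17.1, numpy 2.4.6 and matplotlib 3.10.9 served for tests and plots.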

Additional observations from a re-analysis of the deposited data

Results flagged for a closer look

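In 18 of 248 groups of 6 libraries checked (124 genes in 2 genotypes) the lowest or highest library stood apart from the other 5 by Dixon's test at the 95% level, which chance does in about 1 in 20 groups. Of these, 9 were in Kdm6b-cKO 0 and 2 in Kdm6b-cKO 5, the shallowest libraries.

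Kdm6b-cKO 0 was listed at 0 FPKM for Prex1 (next lowest 1.54), Arl15 (7.07), Sgk1 (9.82), Drd1 (3.16), Slc37a1 (1.56), Etv5 (2.84) and Kcnip2 (8.64), and stood at 1.56 FPKM for Dmtn (next lowest 12.7) and 6.30 for Slitrk5 (11.8). Kdm6b-cKO 5 was listed at 0 for Frrs1l (next lowest 1.59) and Pcdha3 (1.88). In WT, WT 5 was listed at 0 for Emp3 (next lowest 5.59) and was lowest at 1.33 FPKM for Ankrd37 (4.68) and 1.51 for Emcn (2.76). WT 5 was highest at 26.4 FPKM for Psmf1 (next highest 17.9). WT 2 was lowest at 1.99 FPKM for Insm1 (next lowest 3.98). WT 1 was highest at 163 FPKM for Rps12 (next highest 101), and WT 3 at 27.8 for Arl15 (18.4).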

How the results depend on the processing

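No paired analysis was possible because the columns are numbered 0 to 5 while the labels number the samples 1 to 6, and no number links a WT to a Kdm6b-cKO library.

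The count of genes past the adjusted threshold, 0 in each direction (1263 lower and 1089 higher with an unadjusted p below 0.05), depended on the weighting and on single libraries. It was 209 lower and 195 higher with depth weights, 1 lower without the mean-variance trend, 21 lower without the libraries with receptor signal, 1 higher above 1000000 reads, and 13 lower in the 5 libraries that are both above 1000000 reads and without receptor signal, an alternative chosen after seeing the data. Leaving out 1 library gave 0 to 28 lower and 0 to 24 higher, with 28 and 24 without Kdm6b-cKO 4, 5 lower without Kdm6b-cKO 5 and 2 higher without WT 4. The cause was not tested. At an unadjusted p the 1263 lower genes became 2354 with no filter on low values, 805 with a minimum of 5 FPKM, 2292 with depth weights, 1917 with array weights, 242 without receptor signal, 2033 above 1000000 reads, 458 in the 5 libraries and 851 to 2527 (without Kdm6b-cKO 5) when 1 was left out. The 1089 higher genes became 1845 with depth weights, 667 with the receptor term, 220, 1930 and 642 in the same 3 subsets, and 786 to 1407 when 1 was left out. Genes without overlap (111 lower, 98 higher) numbered 173 lower after quantile normalization, and rise by construction with fewer libraries: 861 and 575 without receptor signal, 1221 and 1130 above 1000000 reads, 2218 and 2209 in the 5 libraries, and 122 to 332 and 103 to 291 when 1 was left out.

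Over 124 single genes and 3208 values, only Sst (0.59, and -0.15 after quantile normalization) and Kdm6a reversed. Genes without overlap could not reverse when libraries were weighted or left out or the receptor term was added. Kdm6a went from 0.02 to -0.0261 with depth weights, -0.0660 with array weights, -0.0517 with the receptor term, -0.13 without receptor signal, -0.0574 in the 5 libraries, and -0.0942 to 0.12 when 1 was left out. Of 908 values of 35 list medians, 28 moved by more than the spread between replicates. One read on a 2-kb transcript is worth up to 2.92 FPKM in the shallowest library, which limits low genes there.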
